A study of Drosophila melanogaster with 3 samples.

Results

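Divergent promoter pairs are neighbouring genes that are read away from each other from starts that lie close together, and 2311 of the 6070 summits of BEAF-32-eGFP binding in Drosophila melanogaster embryos lay at such pairs. A pair was counted where 2 adjacent protein-coding genes, ordered by their 5′ ends, had the left gene on the minus strand, the right gene on the plus strand and 5′ ends at most 1000 bp apart. A summit belonged to the pair when it lay between the 5′ ends or within 500 bp of either of them. The choice used the position of a summit and the annotation, not its signal. The annotation held 2241 such pairs, and 1798 of them held at least 1 summit and are called bound below. The other 3759 summits are not at divergent pairs: 2549 lay within 500 bp of the 5′ end of another coding gene (other start summits), and 1210 lay elsewhere.

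The embryos came from a transgenic fly line in which green fluorescent protein (eGFP) is fused to the C-terminal end of BEAF-32, and chromatin was precipitated with an antibody against GFP and sequenced (ChIP-seq). There was 1 group of 3 libraries, which the labels number as biological replicates 1, 2 and 3, each from whole embryos of both sexes aged 0 to 14 hours, with chromatin sonicated to 200 to 800 bp. All libraries carry the same transgene and no untagged or mutant embryos were analysed here, so every comparison below sets genome positions against each other within a library. Whole embryos mix all cell types and stages of that window, so binding in more cells and more binding per cell cannot be told apart in a signal. A summit is the base of highest signal in a peak, and the main list is the authors' IDR list (irreproducible discovery rate, a measure of how alike peaks rank between replicates).

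BEAF-32 is a Drosophila protein found at chromatin boundaries and known for binding near the promoters of housekeeping genes, many of which are arranged head to head. It recognises the letters CGATA, often in clusters. TATCGATA, the element bound by the transcription factor DREF, contains CGATA on each strand, and GGTCACACT is the core promoter element known as motif 1, found at many housekeeping promoters without a TATA box. The scs′ element between CG3281 and aurA, the gene of the mitotic kinase Aurora A, is a classical BEAF-32-bound boundary.

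The sequences between the 5′ ends are shown for 7 bound pairs with gaps of at most 300 bp on X, 2L, 3L, 3R or 4, together with scs′. They are the 3 pairs with the most CGATA places in the gap, the 2 strongest with GGTCACACT in the gap and no CGATA over the pair, and the 2 strongest with neither. They are shown because much of what follows turns on these strings. Sequences are from the reference genome, build dm6, with CGATA and GGTCACACT in capitals on whichever strand they lie (TATCG and AGTGTGACC are their reverse complements). The pairs with the most CGATA places were those of dome, the receptor of the JAK/STAT pathway, shtd, a subunit of the anaphase-promoting complex, and klar, a factor of nuclear migration, with 6, 6 and 5 places in the gap.
dome/Ubqn, chrX:19683519-19683807, plus strand: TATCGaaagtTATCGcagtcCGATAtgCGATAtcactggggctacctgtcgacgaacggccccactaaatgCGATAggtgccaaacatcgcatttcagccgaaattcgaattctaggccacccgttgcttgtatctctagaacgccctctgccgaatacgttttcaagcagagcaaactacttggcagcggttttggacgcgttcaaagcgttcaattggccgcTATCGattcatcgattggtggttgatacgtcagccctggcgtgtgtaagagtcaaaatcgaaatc
shtd/CG6294, chrX:15462442-15462721, plus strand: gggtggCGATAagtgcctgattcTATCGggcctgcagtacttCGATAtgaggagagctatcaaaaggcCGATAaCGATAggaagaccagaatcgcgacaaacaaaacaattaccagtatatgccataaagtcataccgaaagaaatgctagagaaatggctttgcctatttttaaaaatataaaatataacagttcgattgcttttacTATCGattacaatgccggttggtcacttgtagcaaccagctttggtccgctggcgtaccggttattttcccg
klar/BORCS6, chr3L:540615-540850, plus strand: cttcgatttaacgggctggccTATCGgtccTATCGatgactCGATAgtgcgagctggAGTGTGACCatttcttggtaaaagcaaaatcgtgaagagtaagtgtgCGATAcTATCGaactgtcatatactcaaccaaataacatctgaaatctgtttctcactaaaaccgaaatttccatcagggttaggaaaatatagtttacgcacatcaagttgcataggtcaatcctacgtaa

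Of the scs′ gap, the 300 bases next to the aurA start are printed, and 6 CGATA places lie in the gap.
CG3281/aurA, chr3R:11962824-11963123, plus strand: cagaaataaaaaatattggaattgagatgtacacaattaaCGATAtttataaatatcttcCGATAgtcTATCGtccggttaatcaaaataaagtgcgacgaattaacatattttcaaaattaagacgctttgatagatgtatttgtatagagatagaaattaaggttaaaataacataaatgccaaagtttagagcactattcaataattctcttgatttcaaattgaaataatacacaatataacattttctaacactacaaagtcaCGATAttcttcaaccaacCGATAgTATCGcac

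Chosen by signal among pairs with GGTCACACT in the gap and no CGATA were RfC38, a subunit of the clamp loader of DNA replication, with CG4751, and bol, which acts in male meiosis, with Dhpr. The RfC38 summit lay outside the stretch, 282 bp inside the RfC38 transcript, and the Dhpr summit lay at base 126 of the stretch.
RfC38/CG4751, chr2L:11130646-11130736, plus strand: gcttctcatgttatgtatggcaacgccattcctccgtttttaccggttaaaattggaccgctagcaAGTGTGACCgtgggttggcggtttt
bol/Dhpr, chr3L:9134406-9134559, plus strand: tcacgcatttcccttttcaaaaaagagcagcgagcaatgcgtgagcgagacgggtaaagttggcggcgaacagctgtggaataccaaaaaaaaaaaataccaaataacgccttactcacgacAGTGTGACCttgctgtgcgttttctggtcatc

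On the arms named above, the strongest such pairs with neither CGATA nor GGTCACACT were retm with frj, and CG11247 with Polr2H, a subunit shared by the RNA polymerases. The retm/frj summit lay on the 5′ end of frj, the base after the last one printed, and the CG11247/Polr2H summit lay 45 bp inside CG11247. Only exact strings were searched. The retm/frj stretch opens with ggtgtgacc, which differs from AGTGTGACC in its first base.
retm/frj, chr2L:6455930-6456051, plus strand: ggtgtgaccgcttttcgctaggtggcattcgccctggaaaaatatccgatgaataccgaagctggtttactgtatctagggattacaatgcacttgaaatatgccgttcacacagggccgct
CG11247/Polr2H, chr3L:21728807-21728931, plus strand: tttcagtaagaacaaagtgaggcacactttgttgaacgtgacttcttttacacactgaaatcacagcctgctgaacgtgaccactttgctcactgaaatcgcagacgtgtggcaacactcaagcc

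Signals at these 8 pairs ran from 1094 to 17059, all above 1061, the median of the summits at divergent pairs. They were 10031 at dome/Ubqn, 3444 at shtd/CG6294, 12907 at klar/BORCS6 and 17059 at CG3281/aurA. Without CGATA they were 2067 at RfC38/CG4751, 1094 at bol/Dhpr, 7298 at retm/frj and 6444 at CG11247/Polr2H. The signal is the authors' own value for each peak, its scale is not stated, and it is compared only within a list. Values with an error below are the mean and SD over the 3 libraries, each represented by its strongest 6070 summits; read totals are unknown.

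Replicate 2 stood apart from the others. It held a summit at 75.4% of pairs, against 79.5% in replicate 1 and 78.8% in replicate 3. It placed 2 or more summits at 49.2% of its bound pairs, against 32.8% and 34.3%. Shares that this library moves most are given with and without it.

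Most divergent pairs were bound, and most other genes were not. A summit lay at 1798 of 2241 pairs (80.2%; 77.9% ± 2.18 over the libraries, n = 3), while 2465 of the 9463 coding genes outside pairs (26.0%) had a summit within 500 bp of the 5′ end, and 42.2% of all 13945 coding genes did. The window of a pair is longer than that of a gene by the length of its gap, so the shares are not over equal lengths. Among the unbound pairs are 42 of the tandem histone gene repeats on 2L, 20 of His2B with His2A and 22 of His4 with His3, none of which held a summit in the IDR list or among the strongest 6070 of any library. Reads from such copies may not be placed uniquely, so the absence of a summit there is uncertain. Without them 1798 of 2199 pairs were bound (81.8%; 79.4% ± 2.23 over the libraries). The same pairs carried summits in all libraries, each taken at its strongest 6070 summits. Of the 1798 bound pairs 1668 (92.8%) held one in each library and 4 held one in none. No pair outside the IDR list held one in all 3. Of the member summits, 2073 (89.7%; 95% Wilson interval 88.4 to 90.9) lay inside a strongest region of every library, against 2083 of 2549 other start summits (81.7%; 80.2 to 83.2) and 79.8% of all IDR summits. These intervals cover counting error only, and stronger peaks are found again more often. The IDR list was itself derived from these 3 libraries by how alike their peaks rank. Recurrence of its pairs and summits in them is thus partly built in and is no independent replication.

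The share of bound pairs was lowest at wide gaps. With gaps of 0 to 150 bp, 151 to 300 bp and 301 to 500 bp, 83.8% ± 1.45, 80.2% ± 1.84 and 82.6% ± 2.93 of pairs were bound, and with gaps of 501 to 1000 bp 64.8% ± 2.94 (n = 3 each). Every library was lower in the widest class than in any other. Without the histone repeats the first 2 classes had 87.9% ± 1.51 and 82.7% ± 1.90. In steps of 50 bp the share did not fall evenly: in the IDR list it was 93.6% of 204 pairs at 51 to 100 bp, 62.9% of 132 pairs at 151 to 200 bp (72.8% of 114 without the histone repeats) and 88.8% of 205 pairs at 201 to 250 bp. The median gap was 290 bp for bound and 380 bp for unbound pairs (417 bp without the histone repeats). The gap did not order the signals: Spearman's rho between gap and the strongest signal of a pair was 0.00965 across the 1798 bound pairs and 0.0255 ± 0.0171 in the libraries.

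At narrow gaps the strongest summit of a pair lay near the midpoint, and at wide gaps it lay beside 1 of the genes. The strongest summit of a pair lay a median of 28.3 ± 0.577 bp from the nearer 5′ end at gaps of 0 to 150 bp. At 151 to 300 bp this distance was 75.7 ± 3.79 bp, at 301 to 500 bp it was 75 ± 4 bp, and at 501 to 1000 bp it was 66.5 ± 1.80 bp (n = 3 libraries each). The distance to the nearer gene thus differed little over the 3 wider classes. The distance to the midpoint of the gap rose through the same classes, from 25.2 ± 0.901 to 49.5 ± 3.91, 118 ± 6.88 and 256 ± 4.25 bp. Summits spread evenly over a gap would lie at a median of 25% of its length from the midpoint. Strongest summits between the 5′ ends lay at 17.4% ± 1.29, 18.2% ± 1.72, 30.0% ± 1.40 and 40.0% ± 0.557, so they were nearer the middle than even placement in the narrow classes and farther from it in the wide ones. At gaps of 0 to 150 bp only 59.8% ± 0.530 of strongest summits lay between the ends, and the short gap alone keeps those within few bp of the midpoint. In the IDR list 39.7% of bound pairs at 501 to 1000 bp held several summits. In 57.4% of these the 2 strongest lay on opposite sides of the midpoint.

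**Figure D1:**
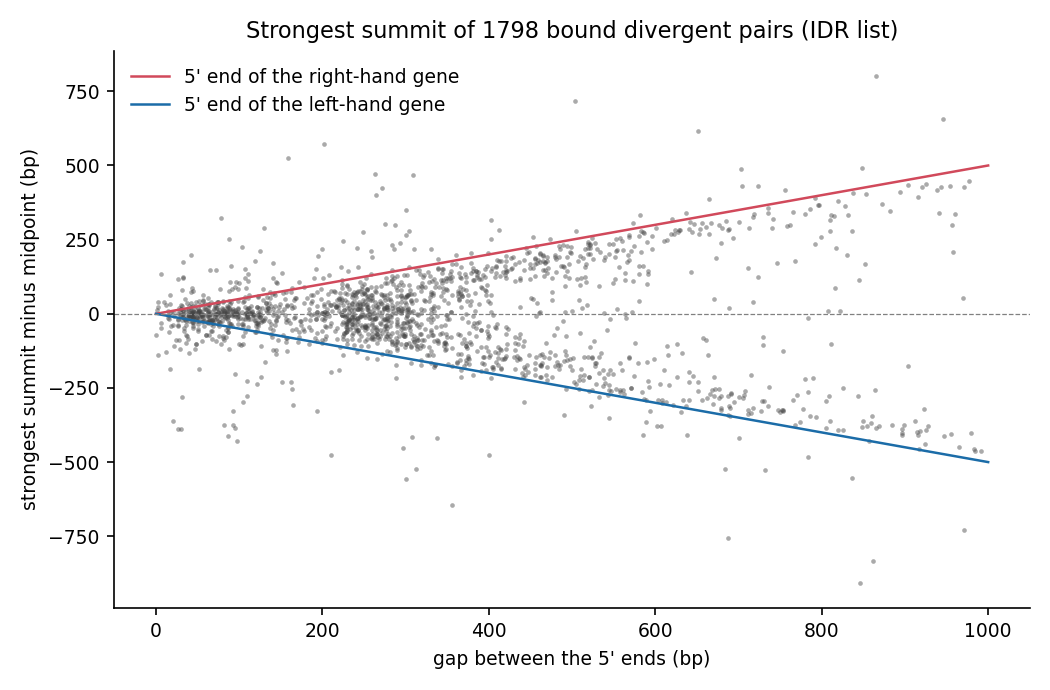
Position of the strongest IDR summit of each of the 1798 bound pairs, in bp from the midpoint of the gap (vertical axis), against the gap in bp (horizontal axis); each point is a pair and the lines are the 5′ ends of both genes. Points gather around the midpoint at small gaps and follow either of the lines at gaps over about 300 bp.

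**Figure D2:**
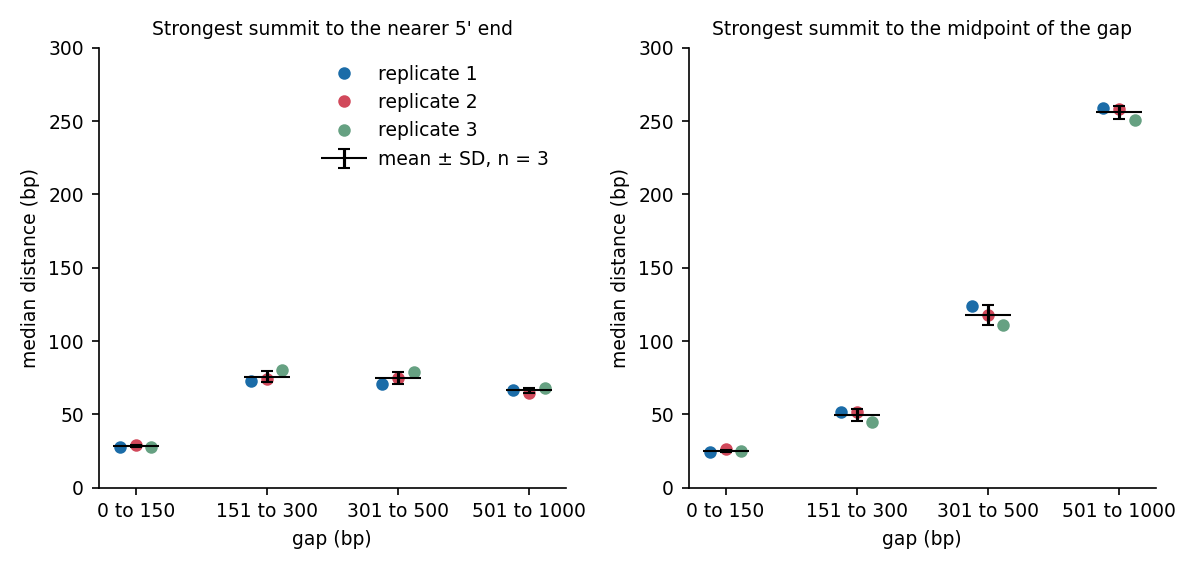
Median distance in bp of the strongest summit to the nearer 5′ end (left) and to the midpoint of the gap (right) in 4 gap classes, with a point for each library and a bar for the mean ± SD (n = 3). The distance to the nearer 5′ end stays between 64.5 and 80 bp in every library from 151 bp of gap upward, and the distance to the midpoint rises to between 251 and 259 bp.

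Pooled over all gaps, the median distance to the nearer start was like that at other genes. In the IDR list 2067 of the 2549 other start summits (81.1%) lay upstream of their 5′ end, at a median of 62 bp, and the member summits between the 5′ ends lay at a median of 66 bp from the nearer one (67 ± 2.65 against 66.7 ± 2.08 bp in the libraries). For members this is the smaller of 2 distances and is capped by the gap, a limit that other start summits lack. It also mixes gap classes: strongest summits between the ends lay at 24.3 ± 0.577 bp at gaps of 0 to 150 bp and 77 ± 5 bp at 301 to 500 bp. Of all members, 1784 of 2311 (77.2%) lay between the 5′ ends. In replicates 1, 2 and 3 the share was 76.4%, 66.5% and 73.9% (72.3% ± 5.16, or 75.2% without replicate 2). Among the strongest summits of pairs the share rose from 59.8% ± 0.530 at gaps of 0 to 150 bp to 93.7% ± 0.511 at 301 to 500 bp. By annotation, 1723 member summits (74.6%) were intergenic, 409 (17.7%) lay in a 5′ untranslated region, 77 in introns and 63 in coding exons.

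At the narrowest bound pairs the strongest summit lay inside a transcript, and at the widest it lay beside 1 gene. The 5′ ends of Diap2, an inhibitor of apoptosis, and bug fall on the same base (2R, 15934825), and the summit (signal 9096) lay 72 bp from it, inside the Diap2 transcript. The summit of Atg6, an autophagy gene, with Pisd (3R, gap 1 bp) had a signal of 489 and lay 13 bp inside Pisd. That of Zpr1 with CG44532 (X, gap 2 bp) had a signal of 2087 and lay 23 bp inside CG44532. At the other end, CG32767 with CG15465 (X, gap 991 bp) had its strongest summit 33 bp from CG32767. Smg5, a factor of nonsense-mediated decay, with Ance (2L, gap 984 bp) had it 30 bp from Smg5. ND-75, a subunit of respiratory complex I, with CG1632 (X, gap 983 bp) had it 36 bp from ND-75. Their signals were 7181, 3067 and 445.

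More than 1 summit was listed at 478 bound pairs: 445 held 2, 31 held 3 and 2 held 4. Pairs with several summits made up 19.8% and 19.2% of bound pairs in the 2 narrower gap classes, and 30.3% and 39.7% in the 2 wider ones. In the libraries the shares were 34.1% ± 14.3, 31.5% ± 8.58, 44.2% ± 7.81 and 46.9% ± 6.05, and without replicate 2 their means were 26.4%, 26.6%, 39.7% and 43.4%. The 2 strongest summits lay on opposite sides of the midpoint in 306 of the 478 pairs (64.0%; 58.4% ± 5.40 over the libraries, 61.1% without replicate 2). By gap class the share was 44.9%, 63.8%, 82.3% and 57.4% in the IDR list, and 46.7% ± 5.64, 65.0% ± 5.38, 72.9% ± 9.36 and 43.2% ± 7.66 in the libraries. The spacing between them was 204 to 209 bp in the mean of the libraries in every gap class. This spacing was not particular to pairs. No neighbouring summits of any list lay closer than 199 bp, and 68.8% of the neighbours within 500 bp in the IDR list were 200 to 220 bp apart; the part of the peak caller in the number and place of second summits was not tested. The stronger summit had a median of 2.25 times the signal of the next one.

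Among pairs with 3 or more summits, the strongest was Cortactin, an actin-binding protein, with AnxB9, an annexin (3R, 5′ ends at 21064471 and 21065241). Its summits lay 110, 312 and 516 bp from the Cortactin end, with signals of 5535, 3857 and 513. At msl-1, a component of the dosage compensation complex, with CG10336 (2L), the signals 5518, 754 and 206 fell with the distance from msl-1, and the last lay outside the gap. At Diap1, an inhibitor of apoptosis, with Mbs, the gene of a myosin phosphatase subunit (3L, gap 925 bp), a summit stood near each end: 70 bp from Diap1 (signal 5362) and 111 bp from Mbs (2695), with a weaker one of 503 between them. At step with CG1416 (2L, gap 544 bp) the summits lay 33 bp from step (4673), between the ends (3217) and 108 bp from CG1416 (617). At NSD, a histone methyltransferase, with BOD1 (3R, gap 392 bp) the signals were 4049 at 31 bp from NSD, 964 at 3 bp from BOD1 and 3231 at a summit 274 bp beyond it.

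Signals at divergent pairs were higher than at other starts. In the IDR list the lowest, median and highest signals were 139, 1061 and 22477 for members, 139, 570 and 18701 for other start summits, and 139, 283 and 13443 elsewhere. The ranges overlap almost wholly. The median log2 signal of members exceeded that of other start summits by 0.75, 0.44 and 0.75 in replicates 1, 2 and 3 (0.64 ± 0.18; exact two-sided sign-flip permutation p = 0.25, Benjamini-Hochberg adjusted p = 0.30 over 6 tests, higher in 3 of 3 libraries; 0.75 without replicate 2). With 3 libraries no p below 0.25 can be reached, so no comparison here can pass a threshold of 0.05. Members made up 319 of the strongest 607 IDR summits, 52 of the strongest 100 and 10 of the strongest 20, and other start summits 261, 47 and 10. Of all 6070 IDR summits 2311 were members and 2549 other start summits. The strongest 607 thus held 13.8% of members and 10.2% of other start summits, against 10% of all IDR summits. In the stronger 50% of each list the difference was 0.07 ± 0.07, but that cut is made on the signal itself and narrows any difference in it. It was smaller than the overall difference among summits with 0, 2 and 3 or more CGATA places within 100 bp (0.34 ± 0.12, 0.32 ± 0.14 and 0.18 ± 0.16) and larger among those with 1 (0.83 ± 0.24), a split made after the data were seen.

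At the summits themselves the shares with CGATA at divergent pairs and at other starts differed by less than the spread between libraries. CGATA lay within 100 bp of 58.8% ± 1.04 of member and 58.7% ± 1.17 of other start summits in the libraries, a difference of 0.0304 ± 0.609 percentage points (exact permutation p = 1, n = 3). In the IDR list it lay at 1414 of 2311 members (61.2%) and 1518 of 2549 other start summits (59.6%), against 58.3% of all IDR summits. TATCGATA lay at 18.4% of both in the IDR list, against 16.9% of all IDR summits, with a difference of −0.722 ± 0.355 points in the libraries. GGTCACACT lay at 8.70% of members and 10.9% of other start summits, against 8.27% of all IDR summits. Its difference was −1.65 ± 0.209 points, lower in 3 of 3 libraries (exact permutation p = 0.25 for both strings, adjusted p = 0.30). These small differences turned on which summits were taken: with only the strongest summit of each pair, CGATA was 9.53 ± 1.75 points and TATCGATA 4.18 ± 0.669 points more frequent at pairs, though other genes were not reduced in the same way.

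Over the whole pair, that is the gap and 100 bp beyond each 5′ end, bound and unbound pairs differed in CGATA. Copies that overlap on both strands were counted as 1 place. Bound pairs held 3.96 ± 0.0865 places per kb and unbound pairs 1.46 ± 0.0142, a difference of 2.49 ± 0.101, or 2.55 ± 0.0960 without the histone repeats (exact permutation p = 0.25, adjusted p = 0.30, higher in 3 of 3 libraries). The difference held within each gap class, with 5.76 against 2.21 places per kb at 0 to 150 bp, 3.94 against 1.57 at 151 to 300 bp, 4.01 against 1.52 at 301 to 500 bp and 3.21 against 1.32 at 501 to 1000 bp. Bound pairs were also poorer in G and C, with a median of 36.1% ± 0.128 against 39.3% ± 0.841, and the part of base composition was not tested (38.5% ± 0.781 at unbound pairs without the histone repeats). As a description, all 60 five-letter orderings of the same bases (A, A, C, G and T, with reverse complements) were counted, a choice made after the data were seen: CGATA had the highest ratio of bound to unbound density (2.64), followed by ATCGA, which overlaps it in ATCGATA (1.92), and the median ordering had 0.915.

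The strings split the pairs into classes with different shares bound. TATCGATA stood in 499 of 1798 bound pairs (27.8%; 95% Wilson interval 25.7 to 29.9) and 9 of 443 unbound pairs (2.03%; 1.07 to 3.82). GGTCACACT stood in 341 (19.0%) and 11 (2.48%), and CGATA in 1412 (78.5%) and 253 (57.1%). In replicates 1, 2 and 3 the unbound pairs held GGTCACACT in 2.40%, 7.80% and 4.20% of cases, so replicate 2 left more pairs with this element unbound. Put the other way, 499 of the 508 pairs with TATCGATA were bound (98.2%; 98.0% ± 0.301 over the libraries), 913 of the 1157 with CGATA and no TATCGATA (78.9%; 76.7% ± 2.09), and 283 of the 467 with none of the strings (60.6%; 57.0% ± 3.34). Pairs with GGTCACACT and no CGATA, as at bol/Dhpr above, were bound in 103 of 109 cases (94.5%; 86.9% ± 7.42) but weakly: their median signal was 432, against 3706 with TATCGATA and 489 with none. The 243 pairs with both GGTCACACT and CGATA were bound in 238 cases, with a median of 1789.

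Signal and share bound rose with the number of CGATA places over the pair. Of pairs with no place 67.0% were bound (62.6% ± 4.04 over the libraries), with 1 place 72.9% (69.8% ± 3.04; 78.4% in the IDR list without the histone repeats), with 2 places 85.4% (84.0% ± 1.56) and with 3 places 90% (89.2% ± 0.740). With 4, 5 and 6 or more places the share was 97.7%, 95.7% and 100%, the last over 73 pairs. The median signal of the strongest summit was 467 without CGATA, 893 with 1 place, 2330 with 2, 3012 with 3, 4038 with 4, 4145 with 5 and 4744 with 6 or more. The lower quartile with 6 or more places, 2746, lay above the upper quartile without any, 783. Across the 1798 bound pairs Spearman's rho between the number of places and the signal was 0.543 (0.533 ± 0.00986 over the libraries), and with places per kb it was 0.546 in the IDR list; pairs are not replicates.

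**Figure D3:**
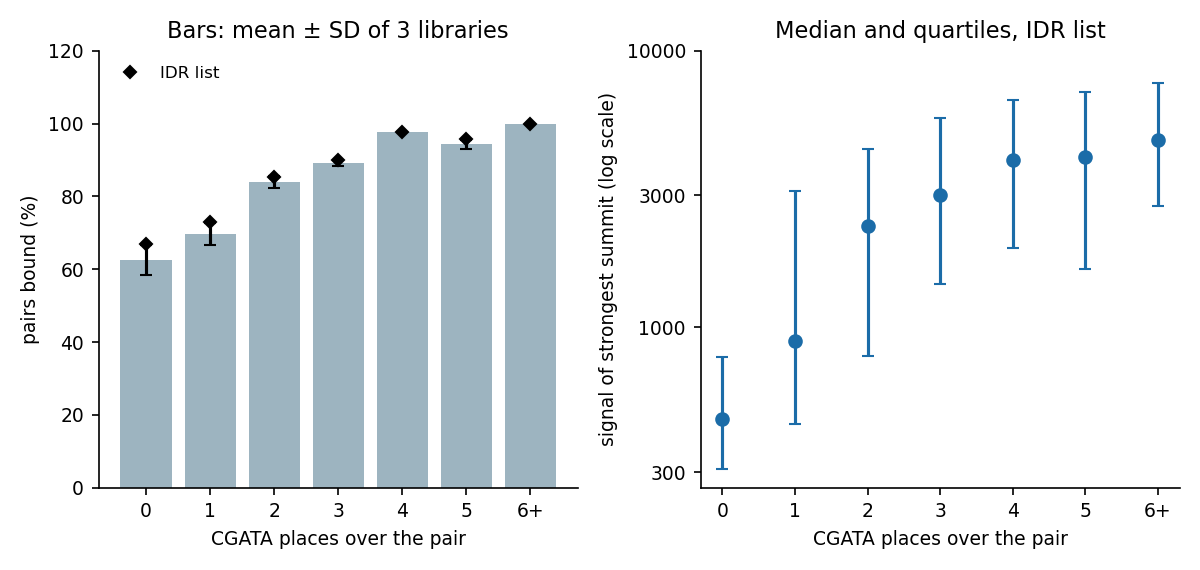
Share of divergent pairs bound in percent (left; bars are the mean ± SD of 3 libraries, diamonds the IDR list) and signal of the strongest IDR summit on a log scale (right; points are medians, bars reach the quartiles) by the number of CGATA places over the pair. Both rise from 0 places (67.0% and 467) to 6 or more (100% and 4744).

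The place of CGATA within the gap went with the place of the summit. In 683 bound pairs the strongest summit lay between the 5′ ends and every CGATA of the gap lay on 1 side of the midpoint, and in 501 of them (73.4%) the summit lay on that side. In the libraries the share was 73.8% ± 1.05, or 23.8 points above an even split (exact permutation p = 0.25, adjusted p = 0.30, above 50% in 3 of 3 libraries). The strongest summit lay a median of 29.2 ± 2.05 bp from the nearest CGATA place of the gap, and the midpoint of the same gaps lay 85.7 ± 0.764 bp from it. The places themselves sat close to the starts: the 2676 places in gaps of bound pairs lay a median of 41 bp from the nearer 5′ end, and the 290 in unbound pairs 82 bp. Strongest summits lay near the starts as well, so the midpoint is an uneven reference. Whether summits and CGATA lie closer than their shared nearness to starts gives was not tested. CGATA lay within 100 bp of the 5′ end at 50.3% of the 4482 genes of pairs, which in narrow gaps share their copies, and at 34.2% of the 9463 other coding genes.

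The 20 strongest pairs combined genes of general cell functions with others. First was TAF1C-like with MESK2 (2R, 5′ ends at 21501732 and 21502097), with 4 CGATA places and ranks of 1, 3 and 1 in replicates 1, 2 and 3. RpL32, a large-subunit ribosomal protein, with CG7943 (3R, 30046161 and 30046470) had 4 places and signals of 6392, 4655 and 6365 in the libraries, ranks 7, 6 and 6. CCHa1-R, a neuropeptide receptor, with eIF3c, a translation initiation factor subunit (2R, 17665068 and 17665678), had its only summit 58 bp from eIF3c and 552 bp from the receptor. At scs′ (3R, 11962805 and 11963124) the summit lay 83 bp from aurA, and the pair had 7 CGATA places, the signals 6812, 4100 and 6377, and ranks 4, 16 and 5. The summit thus lay toward the aurA side, in a stretch between 2 clusters of CGATA.

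The ranks of other strong pairs varied to different degrees between libraries. Mic26-27, a protein of the mitochondrial inner membrane, with CG5916 (3R, gap 174 bp) ranked 2, 38 and 8, the widest spread among the first 10. Sec61alpha, the channel of the endoplasmic reticulum translocon, with Daxx, a histone chaperone (2L, gap 354 bp), ranked 13, 10 and 14. Kat60, the catalytic subunit of katanin, with Mms19 (3R, gap 334 bp) ranked 16, 39 and 18. CG1105 with CG1965 (3R, gap 265 bp) held a single CGATA place and a signal of 15900. At 3 of the 20 pairs the summit lay outside the gap: CG3902 with RpL26 (3L, 43 bp inside the RpL26 transcript), wmd with levy, a subunit of cytochrome c oxidase (2R, 75 bp inside wmd), and Hmt4-20, a histone H4 methyltransferase, with SkpA, a subunit of ubiquitin ligases (X, 3 bp inside SkpA). The widest gap among the 20 was that of mnb, a protein kinase, with CG6788 (X, 955 bp), where the summit lay 71 bp from mnb and 8 CGATA places were counted.

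**Figure D4:**
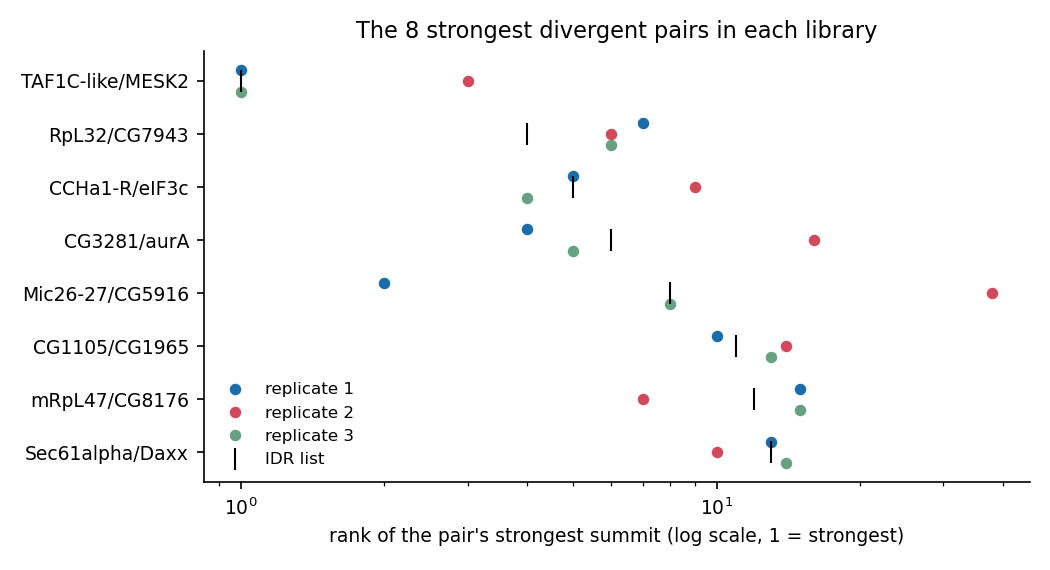
Rank of the strongest summit of the 8 strongest divergent pairs (vertical axis) on a log scale (horizontal axis, 1 is the strongest), in each of the 3 libraries (points) and in the IDR list (ticks). All 8 pairs ranked 38 or better in every library, and the lowest rank was that of Mic26-27/CG5916 in replicate 2.

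Further pairs of the 20 were mRpL47/CG8176, Fibp/Deaf1, PIG-C/CG12016, klar/BORCS6, CG15118/CG15111, Rab30/Caper and Krn/CG7484. Their IDR signals ran from 15847 for mRpL47, a mitochondrial ribosomal protein, to 12338 for Krn, a ligand of the epidermal growth factor receptor. The lowest rank among them was 112, that of CG15118/CG15111 in replicate 2. Each of these 7 pairs had its summit between the 5′ ends, 43 to 124 bp from the nearer one, and at least 3 CGATA places.

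Pairs with ribosomal protein genes were completely bound in the IDR list. All 54 pairs with a cytosolic ribosomal protein gene held a summit (98.8% ± 2.14 over the libraries), and so did all 56 pairs with a mitochondrial ribosomal protein gene (97.6% ± 2.73), against 80.2% of all pairs. Outside pairs 32 of 38 and 12 of 17 such genes were bound. Strong cytosolic ribosomal pairs were those of RpL32 (signal 17324) and of RpL26 with CG3902 (13825). The mitochondrial ones were led by mRpL47 with CG8176 (15847) and mRpS17 with Nop60B (9525). Cytosolic pairs had a median signal of 2637 and mitochondrial ones of 1066. Translation initiation factors were bound in 16 of 18 pairs (83.3% ± 5.56 over the libraries, near the 77.9% ± 2.18 of all pairs), with a median of 4082, and led by eIF3c, eIF3a with CG1074 (11119) and eIF1 with RpL28 (8365). The unbound pairs were those of eIF3g2 with Tmlh and eIF3d2 with CG43450. Neither holds CGATA, but 67.0% of all pairs without CGATA were bound. Genes of aminoacyl-tRNA synthetases, cytosolic (RS) and mitochondrial (RS-m), were bound in 19 of 22 pairs (81.8% ± 4.55, also near all pairs), led by GlnRS with RIOK2 (8784), TrpRS with Vps16A (8535) and GluProRS with AP-1sigma (6911). Their unbound pairs were CysRS-m/O-fut1 with no CGATA place, Lfg/AspRS with 1, and ProRS-m/Snup with 2 and with GGTCACACT.

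In 4 other housekeeping lists nearly every pair was bound, against 80.2% of all pairs. Over the libraries the shares were 92.9% ± 1.75 for respiratory chain, 98.6% ± 2.41 for spliceosome, 96.1% ± 6.79 for DNA replication and 95.1% ± 2.14 for Mediator and TFIID pairs. All pairs had 77.9% ± 2.18. Respiratory chain genes were bound in 32 of 33 pairs, led by ND-SGDH with RhoGAP68F (12136), ATPsynF with CG3548 (10513) and COX7B with Sec3 (9367). The exception was ATPsynbetaL with CG13074, which holds 2 CGATA places. Spliceosome genes were bound in 24 of 24 pairs, led by Sf3b1 with Nle (8381), Sf3a1 with Irc (8025) and SmD1 with Ptp69D (6930). DNA replication genes were bound in 17 of 17, led by Mcm5 with Art1 (10973), Psf1 with Sac1 (9178) and Orc5 with Arpc1 (7880). Mediator and TFIID genes were bound in 26 of 27, led by MED27 with elm (11989), MED7 with Cap-H2 (11944) and Taf6 with ash1 (5322). The exception was MED15 with CG4297, which holds GGTCACACT and no CGATA. Replication and spliceosome genes outside pairs were bound as completely, in 8 of 8 and 5 of 5 cases. Outside pairs 28 of 47 respiratory chain genes and 10 of 12 Mediator and TFIID genes were bound, against 26.0% of all coding genes outside pairs.

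Proteasome genes were bound in 18 of 22 pairs (81.8%), close to the 80.2% of all pairs, led by Prosbeta1 with Rrp42 (9363), Rpn2 with Slbp (8780) and Prosalpha7 with CG1671 (6994). The first 3 unbound pairs by name were Prosbeta4R1 with CG33125, Prosalpha1 with CG18853 and Prosalpha1R with CG12822. The last 2 of these are near-identical copies: they lie 3093 bp apart on 2R, their gaps are identical at 384 of 402 aligned positions (95.5%), the Prosalpha1 and Prosalpha1R genes at 98.8%, and each pair holds 3 CGATA places. Reads from such copies may not be placed uniquely, so the absence of a summit there is uncertain.

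Lists of genes with restricted expression were bound at a lower share of their pairs than the 80.2% of all pairs, apart from the homeobox list with its 1 pair. Cuticle protein genes formed 4 pairs, none bound, among them Cpr23B with CG3119, Cpr65Aw with Lcp65Ad and Cpr65Ax2 with Lcp65Aa. Chemoreceptor genes formed 19 pairs, of which 8 were bound, led by Ir31a with LSm-4 (2147), Ir60e with CG13585 (2055) and Gr59a with CG43659 (612). The first unbound ones by name were CG11594/Gr64a, CG34025/Or63a and Cyp9h1/Or49b. Outside pairs, 0 of 157 chemoreceptor genes and 0 of 91 cuticle genes had a summit. Cytochrome P450 genes were bound in 2 of 8 pairs, Cyp6a22 with Pcf11 (532) and Cyp9f2 with CG5167 (392), and unbound in Cyp4d1/CG3630, Cyp4d14/Cyp4d2 and Cyp6a9/Cyp6a20, among others. Trypsin-like proteases were bound in 1 of 7 pairs, Jon65Ai with tant (8647), and unbound in CG13202/iotaTry, CG30025/deltaTry and Jon25Bi/Marcal1, among others. Of the homeobox genes of the body plan, exd, a cofactor of the Hox proteins, was the only one in a divergent pair, and it was bound (3712).

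**Figure D5:**
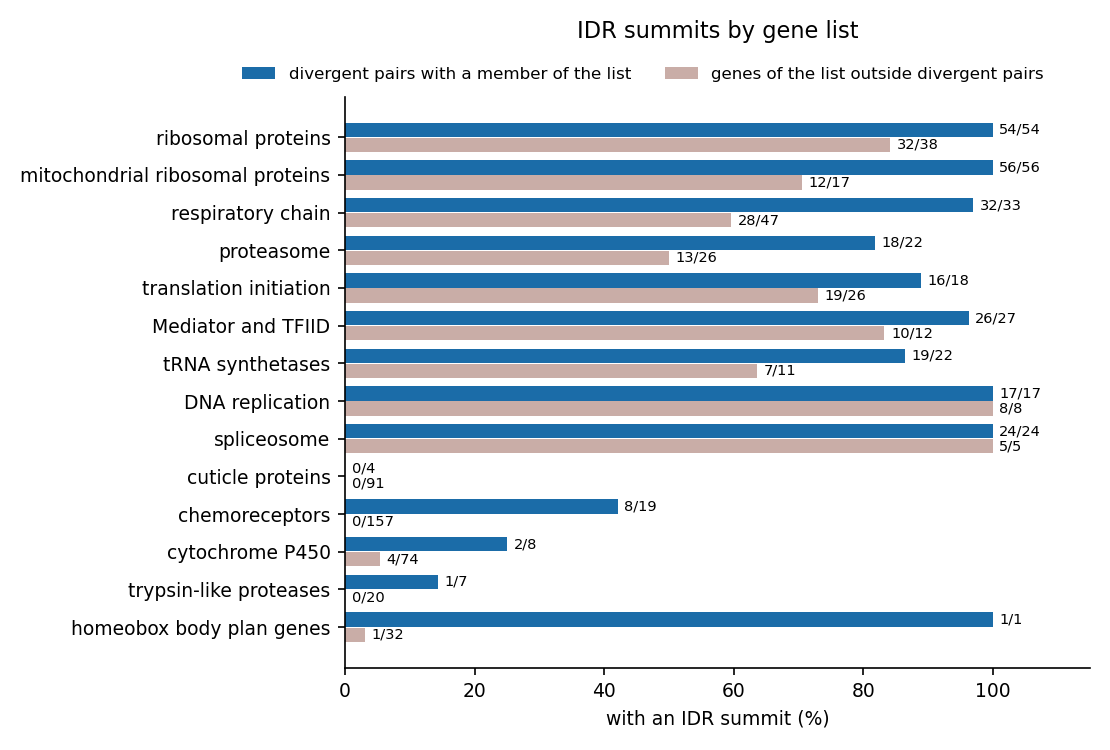
Share in percent with an IDR summit of divergent pairs that contain a gene of each list (dark bars) and of genes of the list outside divergent pairs (light bars), with the counts beside the bars. Lists from ribosomal proteins to spliceosome lie between 81.8% and 100% at pairs, and cuticle, chemoreceptor, P450 and protease lists between 0% and 42.1%.

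The gene nearer to the summit was compared at bound gaps over 300 bp with 1 list gene, a description chosen after the data were seen. At 6 of 6 chemoreceptor pairs the strongest summit lay nearer to the partner than to the receptor gene. It lay 15 bp from LSm-4, a protein of RNA processing, and 347 bp from Ir31a. It lay 28 bp from Letm1, a mitochondrial protein, and 337 bp from Ir60b, and 1 bp from CG5521 and 444 bp from Gr97a. At Jon65Ai with tant it lay 90 bp from tant and 603 bp from the protease gene. In housekeeping lists the summit was nearer to the list gene at 9 of 10 respiratory chain, 9 of 11 spliceosome, 7 of 9 translation initiation, 17 of 25 mitochondrial ribosomal, 17 of 30 ribosomal protein, 6 of 10 Mediator and TFIID, 4 of 8 tRNA synthetase, 3 of 6 DNA replication and 2 of 3 proteasome pairs.

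Pairs on the X chromosome were bound more often than those on the large autosomal arms. In the IDR list 315 of 349 X pairs (90.3%) and 1476 of 1884 autosomal pairs (78.3%) held a summit, and the difference over the libraries was 13.6 ± 1.61 points (exact permutation p = 0.25, higher in 3 of 3 libraries; a comparison chosen after the data were seen). Without the histone repeats, which lie on 2L, the autosomal share was 80.1% and the difference 11.8 ± 1.66 points. X pairs also held more CGATA, 4.53 places per kb against 2.82 to 3.37 on the large autosomal arms. Outside pairs, 30.4% of X genes and 23.7% to 26.8% of genes on the large autosomal arms were bound.

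A minority of pairs departed from these patterns. Of the 443 unbound pairs, 155 (35.0%) held a summit in the pooled list before the IDR threshold. Of 342 pairs with 4 or more CGATA places 8 were unbound, singled out after their values were seen: CG10154/CG10725, CG11825/Prx6b, CG44251/CG13321, CG9877/CG13538, CG15170/CG15169, CG18746/CG10086, CG9981/CG4301 and Whamy/topi, the last holding a regulator of spermatocyte transcription. None of the 8 had a TATCGATA or a summit among the strongest of any library, and 3 had a weak summit in the pooled list (signals 18.7 to 35.2). In the other direction, 386 bound pairs held no CGATA, with 467 as their median signal. The weakest members, with a signal of 139 each, were summits at Fitm/AlaRS-m, skd/Pdss2 and CG3198/Mcm6. Fitm/AlaRS-m held no summit among the strongest 6070 of any library. At skd/Pdss2 and CG3198/Mcm6 the strongest summits reached 3766 and 1463.

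Values on both sides of each limit of the definition were as follows. Of 64 pairs with gaps of 901 to 1000 bp 33 were bound (51.6%), and of 57 pairs just outside, at 1001 to 1100 bp, 31 (54.4%). At 401 to 500 bp outside the gap lay 12 member summits with a median signal of 934, and at 501 to 600 bp lay 20 summits with a median of 492. The 3 strongest pair summits of the pooled list that missed the IDR threshold had signals of 139.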

How the data were processed

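The sources were narrowPeak lists of 3 ChIP-seq libraries in build dm6. Per the labels' file notes, the authors called relaxed peaks in every replicate and in the pooled replicates against a control, and derived the IDR list from both. Aligner, peak caller and thresholds: not given in the sources used here. Signal values were deposited by the authors with no stated scale, and summit offsets were deposited as bases from the start of each region. Depth is unknown, and lists in another build were not used.

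Summits were turned into 1-based positions and set against Ensembl BDGP6.54, release 115, and the reference genome of that assembly. Each library was represented by its strongest 6070 summits, and differences taken within libraries were tested by exact two-sided sign-flip permutation over the 3 libraries (smallest possible p 0.25), with Benjamini-Hochberg adjustment over 6 tests. The labels call the libraries biological replicates. The 14 gene lists are symbol patterns. Strings were counted as exact matches on both strands. Named are the pairs at the 20 strongest summits, scs′, the 3 weakest, narrowest and widest, up to 5 with several summits, and in each list up to 3 strongest and first 3 unbound; a few that this rule takes are not reported here. Members, lists and rules were chosen with earlier results of these data known. The software was scipy 1.17.1, pandas 2.3.3, numpy 2.4.6 and matplotlib 3.10.9 under Python 3.11.15, and the computation was tested on simulated data.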

Additional observations from a re-analysis of the deposited data

How the results depend on the processing

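No paired analysis was possible because the series has a single group, so replicate numbers pair no groups; differences were taken within each library instead. The comparisons were repeated with other gap limits, windows, starts and lists. Bound pairs numbered 1787 with neighbours taken among all annotated genes. The signal difference was above 0 under every alternative run, from 0.0672 (stronger 50% of each list) to 1.92 (whole relaxed lists). After seeing the data it was added that it was 0.853 with the strongest summit of each region, and that CGATA per kb differed by 2.55 without the histone repeats. CGATA per kb stayed higher at bound pairs and the same side share stayed above 50% in every alternative run.

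The string differences at summits changed sign. CGATA was −1.01 points with gaps up to 500 bp, −1.12 with summits up to 250 bp outside, −5.35 in the stronger 50% of each list and −5.82 within 50 bp of the summit, but 8.67 in the whole relaxed lists and 9.53 with only the strongest summit of each pair. TATCGATA was 4.18 with only the strongest summit of each pair, 4.46 in the whole relaxed lists and 0.841 within 200 bp, and GGTCACACT 2.19 in the whole lists and 0.432 within 200 bp. The cause was not tested. Leaving out each library moved CGATA between −0.316 and 0.255.

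The share between the 5′ ends moved to 80.2% in the stronger 50%, 82.9% with only the strongest summit of each pair and 62.3% in the whole lists. The median distance to the midpoint, 110 bp as reported for all members, was 84.2 bp with gaps up to 500 bp and 124 bp up to 2000 bp, 91.8 bp in the stronger 50%, 80.5 bp for the strongest summits and 143 bp in the whole lists. Counting CGATA per strand gave a rho with signal of 0.569. The depth is unknown, so what it limits cannot be stated.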

Other observations

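The gaps themselves were unevenly filled: 204 pairs had gaps of 51 to 100 bp, 132 had gaps of 151 to 200 bp and 262 had gaps of 251 to 300 bp. The share bound was lowest between these, 62.9% at 151 to 200 bp, against 74.9% at 101 to 150 bp and 85.9% at 251 to 300 bp. Without the tandem histone gene pairs, where reads may not be placed uniquely, it was 72.8% at 151 to 200 bp and 84.5% at 101 to 150 bp. The median distance of the strongest summit to the midpoint was 22 bp at 51 to 100 bp, 53 bp at 251 to 300 bp and 169 bp at 451 to 500 bp.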
